A study of Mus musculus with 20 samples.

Results

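The genes described here encode the NF-kB transcription factors and the proteins that hold them back: the subunits Rela, Relb, Rel, Nfkb1 and Nfkb2, the inhibitors Nfkbia, Nfkbib, Nfkbie and Nfkbiz, and the feedback inhibitor Tnfaip3. They were the rows of the table whose symbol matched 1 of these 10 names, and they made up 10 of 23402 rows. All 10 had a mean of at least 0.5 FPKM (fragments counted per unit of transcript length and of sequencing depth) and so were among the 12788 rows tested. RNA came from tumours of MC38, a single established mouse colon adenocarcinoma line, grown under the skin. There were 10 Control libraries, from tumours given vehicle, and 10 P.T.ATBx libraries, from tumours given ATBx around the tumour. Neither the agent nor its dose and schedule is named in the labels, which give no strain, sex or age of the hosts and do not say that each library was its own animal. The p-values below therefore refer to the variation among these 20 libraries, part of which may be technical.

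NF-kB proteins act as pairs of subunits that bind DNA at kB sites. In resting cells IkB proteins, among them those encoded by Nfkbia, Nfkbib and Nfkbie, keep the pairs in the cytoplasm. Signals from Toll-like receptors, cytokine receptors or antigen receptors activate a kinase complex that marks the IkB proteins for destruction, and the freed pairs enter the nucleus. A slower, non-canonical route processes the Nfkb2 precursor and frees pairs that hold Relb. Several NF-kB genes, Nfkbia, Nfkbie, Nfkb2, Rel and Tnfaip3 among them, are themselves NF-kB targets, which gives the pathway its feedback.

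The tumours held both leukocyte and tumour RNA, so a level below is that of the whole tissue. Although the labels give the cell type as cancer cell, Ptprc, which marks leukocytes, averaged 44.6 ± 7.61 FPKM (SD, n = 10) in Control and 43.8 ± 9.52 FPKM in P.T.ATBx. Csf1r, the growth factor receptor of macrophages, averaged 79.0 ± 8.97 and 80.9 ± 11.7 FPKM. The epithelial keratin Krt18 ran from 0.335 to 53.7 FPKM in Control and from 2.2 to 14.4 FPKM in P.T.ATBx, Krt8 from 0.125 to 44.8 and from 2.24 to 11.9 FPKM, and the epithelial adhesion gene Epcam from 0.297 to 10.6 and from 0.997 to 3.75 FPKM. The intestinal factor Cdx2 was listed at 0 in all 20 libraries, and the B cell gene Ms4a1 did not pass 0.237 FPKM. The neutrophil gene S100a8 ran from 1.58 to 28.2 FPKM in Control and from 3.5 to 8.15 FPKM in P.T.ATBx. In such bulk samples, fewer cells of a type and less RNA per cell cannot be told apart. Libraries also differed in composition. Summed FPKM ran from 556770 to 752782, and 2 small non-coding RNAs, Rpph1 and Rmrp, took 7.75% to 20.5% of it. Their share was 14.8% to 20.5% in the 4 libraries of highest sum (Control 1, Control 3, P.T.ATBx 1 and P.T.ATBx 4) and 7.75% to 14.0% in the other 16.

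Because some of these genes are known NF-kB targets, the sequences just upstream of the inhibitor genes Nfkbia and Nfkbie and the subunit gene Rel are shown. Each run is the 140 bases before the annotated start in RefSeq's GRCm38.p6, written 5′ to 3′ on the strand of the gene, and the capitals mark a match to the kB consensus.
Rel, chr11:23770970-23771109, minus strand: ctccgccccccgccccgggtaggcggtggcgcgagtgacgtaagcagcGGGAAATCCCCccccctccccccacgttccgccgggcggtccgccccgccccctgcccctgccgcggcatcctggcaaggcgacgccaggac
Nfkbia, chr12:55492648-55492787, minus strand: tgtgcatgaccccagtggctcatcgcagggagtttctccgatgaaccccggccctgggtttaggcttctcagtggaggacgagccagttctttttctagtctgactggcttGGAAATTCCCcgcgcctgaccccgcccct
Nfkbie, chr17:45555560-45555699, plus strand: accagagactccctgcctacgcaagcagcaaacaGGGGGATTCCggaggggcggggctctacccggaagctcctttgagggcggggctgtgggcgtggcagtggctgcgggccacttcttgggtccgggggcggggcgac
The match in Rel lies 92 to 82 bases before the start and reads as a match on both strands. The match in Nfkbia, 29 to 20 bases before the start, is on the opposite strand, and the match in Nfkbie, 106 to 97 bases before the start, is on the strand of the gene.

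For Nfkb2 and Tnfaip3, windows of 30 bases around each match before 1 start of the promoter table are shown, with the match again in capitals. That start is at base 46304737 for Nfkb2, inside the span of the gene, which has other starts, and at base 19015410 for Tnfaip3.
Nfkb2, chr19:46304688-46304717, plus strand: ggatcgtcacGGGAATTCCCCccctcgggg
Nfkb2, chr19:46304716-46304745, plus strand: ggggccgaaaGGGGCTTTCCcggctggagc
Tnfaip3, chr10:19015516-19015545, minus strand: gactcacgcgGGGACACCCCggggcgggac
Tnfaip3, chr10:19015403-19015432, minus strand: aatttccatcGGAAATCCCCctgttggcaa
The RefSeq promoter table, with windows from 250 bases before to 50 bases after each start, had entries for 7 of the 10 genes. Of these, 5 had a match on either strand, and Rela and Nfkbib had none. The same consensus matched 1480 of all 32851 windows, or 4.51%, and 5.14% of the 27025 genes in the table. A match is a description of the letters in the window, and the libraries measure no binding.

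Nfkb2, whose product is the precursor of the non-canonical route, had the highest FPKM of the 10 genes. At chr19:46300994-46312400 in GRCm38, it measured 66.8 FPKM in the lowest Control library, 81.6 FPKM at the median and 87.0 FPKM in the highest, against 65.1, 77.0 and 88.2 FPKM in P.T.ATBx. The groups overlapped almost over their whole range, and the 3 lowest libraries, at 65.1 to 67.9 FPKM, were Control 1, P.T.ATBx 1 and P.T.ATBx 4, all 3 among the 4 of highest sum. The other 17 ran from 75.1 to 88.2 FPKM. Nfkb1 (chr3:135584655-135691969), which encodes the precursor of the most common partner of Rela, measured 34.7, 42.3 and 46.8 FPKM (lowest, median and highest) in Control and 35.1, 41.0 and 45.3 FPKM in P.T.ATBx. Its 3 lowest libraries were the same 3, and the groups overlapped.

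Rela (chr19:5637442-5648134) carries the activating domain of the canonical pair. It measured 35.5, 38.4 and 42.0 FPKM in Control and 32.8, 36.8 and 42.9 FPKM in P.T.ATBx, and the P.T.ATBx range enclosed the Control range. Relb (chr7:19606217-19629438), the activating subunit of the non-canonical route, measured 19.7, 21.1 and 22.0 FPKM in Control and 16.4, 19.4 and 22.7 FPKM in P.T.ATBx. Here the lowest Control library exceeded 6 of 10 P.T.ATBx libraries, and P.T.ATBx 6 lay above the highest Control library. Rel (chr11:23736847-23770969), a subunit used mostly by lymphoid and myeloid cells, was the scarcest subunit, at 3.13, 3.94 and 5.25 FPKM in Control and 2.57, 4.36 and 5.48 FPKM in P.T.ATBx, with overlapping groups. Of the summed FPKM of the 5 subunits, Nfkb2 made up 43.4% ± 1.07 (SD, n = 10) in Control and 43.0% ± 0.822 in P.T.ATBx. Nfkb1 and Rela followed at 22.4% ± 0.717 and 20.7% ± 0.883 in Control, then Relb at 11.3% ± 0.738 and Rel at 2.17% ± 0.337. In P.T.ATBx the shares were 22.8% ± 0.37, 20.8% ± 0.819, 11.0% ± 0.837 and 2.38% ± 0.469.

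Among the inhibitors, Nfkbia (chr12:55489409-55492647), which encodes the IkB protein that is rapidly destroyed and remade, had the highest level. It measured 58.4, 60.8 and 66.4 FPKM in Control and 53.4, 58.9 and 61.8 FPKM in P.T.ATBx. The groups overlapped, with 4 P.T.ATBx libraries below the lowest Control and 4 Control libraries above the highest P.T.ATBx library. Nfkbie (chr17:45555700-45563169) encodes a second inducible IkB protein and measured 18.7, 23.1 and 25.2 FPKM in Control and 18.6, 22.4 and 24.7 FPKM in P.T.ATBx. Its 3 lowest libraries, Control 2, Control 3 and P.T.ATBx 2, stood apart at 18.6 to 18.7 FPKM, and the other 17 began at 21.2 FPKM. Nfkbib (chr7:28758251-28766644), a slower IkB protein, measured 8.7, 10.2 and 11.6 FPKM in Control and 9.03, 9.85 and 11.8 FPKM in P.T.ATBx.

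The remaining inhibitors act elsewhere in the pathway. Nfkbiz (chr16:55811375-55838954) encodes a nuclear IkB protein that can also help activate some targets, and it measured 8.42, 11.2 and 14.1 FPKM in Control and 7.95, 12.0 and 14.1 FPKM in P.T.ATBx. It fell into a low set of 6 libraries at 7.95 to 9.25 FPKM, Control 1, 2 and 3 and P.T.ATBx 1, 2 and 4, and a set of 14 at 10.7 to 14.1 FPKM, 7 of each group. Tnfaip3 (chr10:19000910-19015410), a ubiquitin-editing enzyme that shuts off signals to the kinase complex, measured 6.93, 10.4 and 12.5 FPKM in Control and 7.62, 10.7 and 11.6 FPKM in P.T.ATBx. The lowest library of each group, Control 3 and P.T.ATBx 2, stood below the other 18. All of these groups overlapped.

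**Figure D1:**
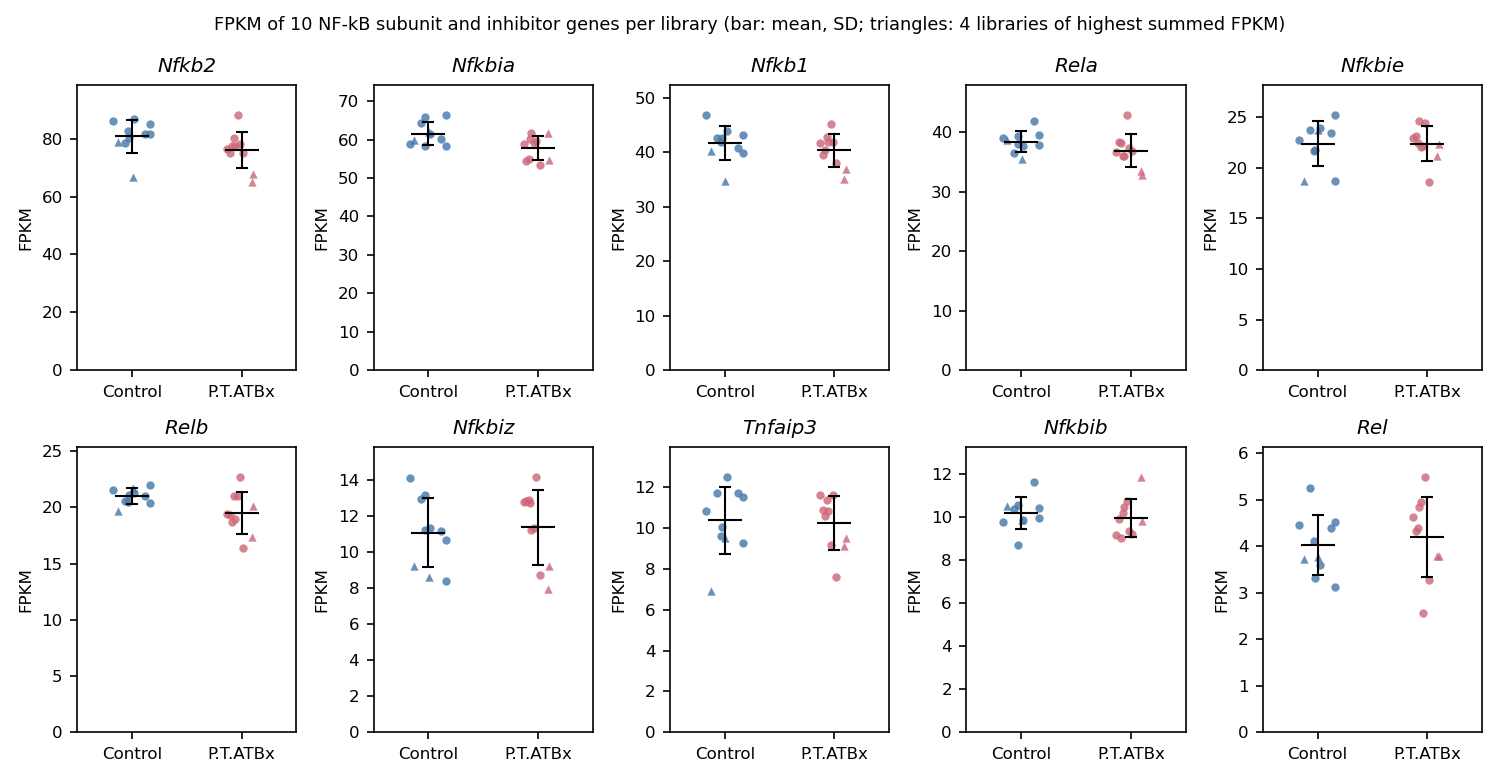
FPKM (vertical axes, each from 0) of the 10 genes in each library, by group; points are libraries, triangles the 4 of highest summed FPKM, and bars the mean and SD of 10 libraries. Nfkb2 sits highest, at 65.1 to 88.2 FPKM, Rel lowest, at 2.57 to 5.48 FPKM, and every pair of groups overlaps.

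Because FPKM is scaled to gene length, the levels can be ordered across genes. In the order Nfkb2, Nfkbia, Nfkb1, Rela, Nfkbie, Relb, Nfkbiz, Tnfaip3, Nfkbib and Rel, most steps held within nearly every library. Nfkb2 exceeded Nfkbia, Nfkbia exceeded Nfkb1, Rela exceeded Nfkbie, Relb exceeded Nfkbiz and Nfkbib exceeded Rel in 20 of 20 libraries. Nfkb2 was 1.32 ± 0.116-fold (mean and SD over 20 libraries) the level of Nfkbia, and Nfkbia 1.46 ± 0.128-fold that of Nfkb1. Nfkb1 exceeded Rela by 1.09 ± 0.0662-fold and Nfkbie exceeded Relb by 1.11 ± 0.0807-fold, each in 18 of 20 libraries. Nfkbiz, Tnfaip3 and Nfkbib did not separate beyond their spread: Nfkbiz exceeded Tnfaip3 in 13 libraries and Tnfaip3 exceeded Nfkbib in 12, with ratios of 1.1 ± 0.155 and 1.03 ± 0.165. Psd and Sirt2 overlap Nfkb2 and Nfkbib, and the use of strand in the authors' counting is not given in the sources used here, so reads of those genes could be shared.

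The comparison of the groups asks how ATBx placed around the tumour altered RNA levels in it, and none of the 10 genes passed the threshold. With limma across all 12788 rows and Benjamini-Hochberg adjustment over them, 108 rows had an adjusted p under 0.05, or 0.845%, and 0 of the 10 genes were among them. Of the 108, 59 (0.461%) were higher and 49 (0.383%) lower in P.T.ATBx, and after rescaling each library to 1 sum the split was 20 and 29. At an unadjusted p under 0.05 there were 2 of the 10, Nfkbia and Relb, both lower, where 13.6% of all rows passed that level in either direction, 6.08% as lower and 7.51% as higher. Groups that did not overlap were found for 0 of the 10 and for 0.133% of all rows. Of the 10 log2 fold changes 7 were negative, with a median of −0.036, where 48.5% of all rows were negative and the median was 0.0027.

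The interval of each difference was narrow for most of the genes. Nfkbia averaged 61.6 ± 2.99 FPKM in Control and 57.9 ± 3.18 FPKM in P.T.ATBx, with SDs over 10 libraries. Its log2 fold change was −0.088, with a standard error of 0.036, a 95% interval of −0.16 to −0.014 and a limma adjusted p of 0.275. Its level was below the Control median in 8 of 10 P.T.ATBx libraries, and a permutation test of the same difference, two-sided, gave p = 0.016. Relb averaged 21.0 ± 0.699 and 19.5 ± 1.84 FPKM, a log2 fold change of −0.11 (standard error 0.0446, interval −0.20 to −0.013, limma adjusted p = 0.294). Its level was below the Control median in 9 of 10 P.T.ATBx libraries, and its permutation p was 0.0229. The permutation p-values are not adjusted. Nfkb2 had a log2 fold change of −0.087 (interval −0.19 to 0.017, limma adjusted p = 0.470), Rela −0.060 (interval −0.14 to 0.024, adjusted p = 0.562) and Nfkb1 −0.044 (interval −0.14 to 0.056, adjusted p = 0.743). These 3 genes were below their Control medians in 9, 9 and 8 of 10 P.T.ATBx libraries. Without the 4 libraries of highest sum, the log2 fold change was −0.094 for Nfkbia, −0.097 for Relb, −0.078 for Nfkb2, −0.036 for Rela and −0.043 for Nfkb1.

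The other 5 genes had log2 fold changes nearer 0. That of Nfkbib was −0.027 (interval −0.13 to 0.072), that of Tnfaip3 −0.012 (interval −0.19 to 0.16) and that of Nfkbie 0.0037 (interval −0.11 to 0.12). Rel and Nfkbiz were at 0.040 (interval −0.15 to 0.23) and 0.031 (interval −0.18 to 0.24). Their limma adjusted p-values ran from 0.851 to 0.987. Without the 4 libraries, the values were −0.052 for Nfkbib, −0.059 for Tnfaip3, −0.007 for Nfkbie, 0.048 for Rel and 0.053 for Nfkbiz. Single libraries moved several of them: Rel was at 0.003 without P.T.ATBx 6 and at 0.099 without P.T.ATBx 8. Rel, Nfkbiz and Tnfaip3 had the widest intervals, and the spread of their libraries around the group means was in the upper range of all rows tested, at the 83.6, 87.2 and 79.6 percentiles. The spread of Nfkbia was at the 6.67 percentile.

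**Figure D2:**
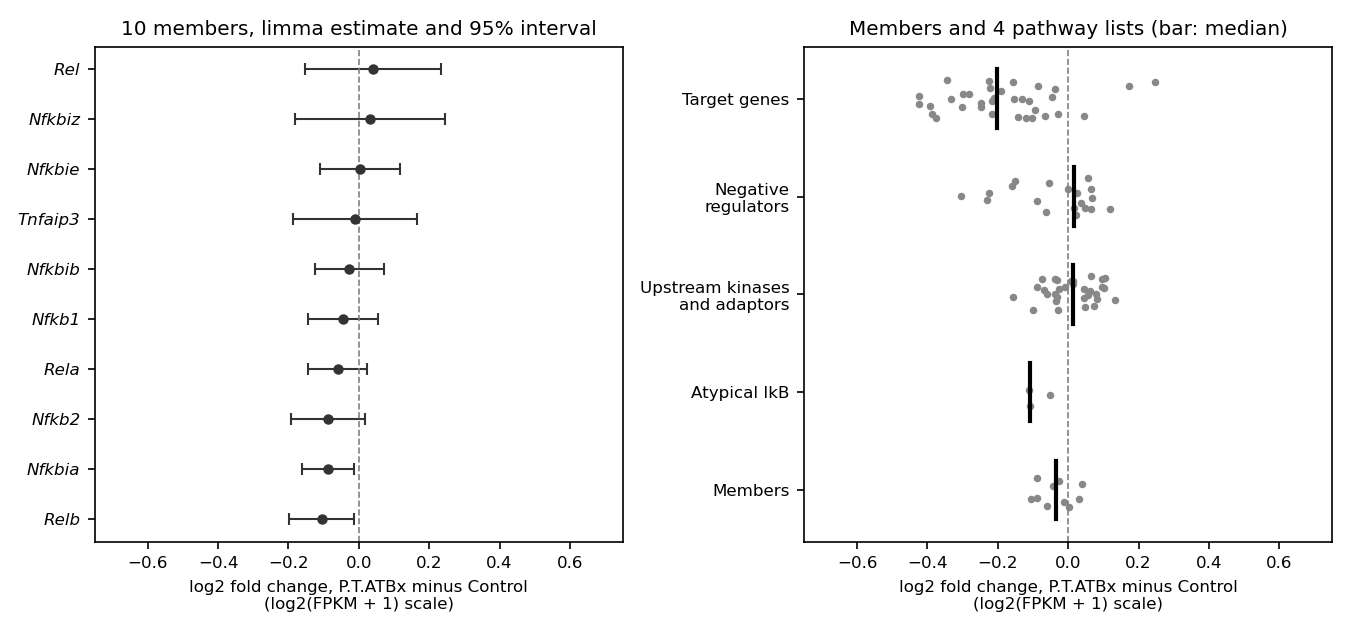
Log2 fold change from Control to P.T.ATBx, in units of log2(FPKM + 1) (horizontal axes); left, the 10 genes with 95% intervals from limma, right, the 10 genes and the genes of 4 pathway lists, with a bar at each median. The intervals of Relb and Nfkbia lie below 0, and the target genes have a median of −0.20.

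Around these 10 genes, lists of other pathway genes were read from the same fit, and no gene of the 4 lists passed the adjusted threshold. The 3 atypical IkB genes, Nfkbid, Bcl3 and Nfkbil1, had log2 fold changes of −0.11, −0.11 and −0.051 (limma adjusted p of 0.511, 0.613 and 0.671). Of 31 upstream kinase and adaptor genes, 14 were negative and 17 positive, with a median of 0.013. At an unadjusted p under 0.05 there were 3, all higher, where 7.51% of all rows were higher and 6.08% lower at that level. The kinase subunit gene Chuk averaged 30.0 ± 1.53 FPKM in Control and 32.3 ± 1.16 FPKM in P.T.ATBx, above the Control median in 10 of 10 P.T.ATBx libraries (log2 fold change 0.10, limma adjusted p = 0.126). Without the 4 libraries of highest sum it was at 0.069 (adjusted p = 0.340). Map3k7, the kinase that activates that complex, Tab3, its adaptor, and Sharpin, part of the linear ubiquitin ligase, had log2 fold changes of 0.096, 0.13 and 0.096 (adjusted p of 0.155, 0.199 and 0.385).

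The negative regulators were as mixed. Of 20 listed, 19 were in the table and tested; 9 were negative and 10 positive, with a median of 0.016. Tnip3, whose product binds the Tnfaip3 protein, averaged 1.5 ± 0.287 and 1.04 ± 0.351 FPKM (log2 fold change −0.30, limma adjusted p = 0.117). Zc3h12a, an RNase that degrades cytokine transcripts, was at −0.15 (adjusted p = 0.239), and Usp18 and Nlrc5 were both at −0.23 (adjusted p of 0.396 and 0.567).

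NF-kB target genes were mostly on the lower side. Of 40 listed, 34 were tested, and 31 had negative and 3 positive log2 fold changes, with a median of −0.20, where the median of all rows was 0.0027. At an unadjusted p under 0.05, 12 were lower and 1, Cd83, was higher (log2 fold change 0.25), where 6.08% of all rows were lower and 7.51% higher. The chemokine gene Ccl22 averaged 5.58 ± 1.01 FPKM in Control and 4.17 ± 0.72 FPKM in P.T.ATBx (log2 fold change −0.35, interval −0.54 to −0.15, limma adjusted p = 0.0812). The monocyte chemokine gene Ccl7 averaged 55.6 ± 8.97 and 43.7 ± 5.84 FPKM (−0.33, interval −0.53 to −0.14, adjusted p = 0.0854). Each was below its Control median in 10 of 10 P.T.ATBx libraries. With single libraries left out in turn, the limma adjusted p of Ccl22 ran from 0.0292 (without Control 2) to 0.149. That of Ccl7 ran from 0.0126 (also without Control 2) to 0.165. Without the 4 libraries of highest sum, Ccl22 was at −0.258 (adjusted p = 0.216) and Ccl7 at −0.237 (adjusted p = 0.312). The cytokine gene Il1b averaged 21.4 ± 5.59 and 15.8 ± 2.43 FPKM (−0.39, adjusted p = 0.137), and Plau, which encodes a secreted protease, 25.5 ± 3.46 and 21.4 ± 2.8 FPKM (−0.25, adjusted p = 0.139). The list was drawn up with earlier results of these data known, so its direction is not independent evidence. Many of its genes are transcribed by leukocytes, and marker lists of leukocytes and of other tissue cells were read from the same fit. Of 8 T cell markers tested, 7 were negative. Their median was −0.17, with summed levels of 26.5 to 67.6 FPKM in Control and 18.6 to 52.4 FPKM in P.T.ATBx. For macrophage markers 7 of 11 values were negative; the median was −0.043, with summed levels of 2120 to 3450 and 1980 to 3120 FPKM. Of 4 neutrophil markers tested, 3 were negative, with a median of −0.32 and summed levels of 9.96 to 85.7 FPKM in Control and 9.05 to 25.6 FPKM in P.T.ATBx. Retnlg, 1 of the 4, averaged 7.57 ± 3.82 and 3.04 ± 1.39 FPKM and was below its Control median in 10 of 10 P.T.ATBx libraries (limma adjusted p = 0.0722). The rest did not share this: S100a8 was at −0.32, S100a9 at −0.31 and Csf3r at 0.11 (limma adjusted p of 0.798, 0.844 and 0.789). Each of these was above its Control median in 6 of 10 P.T.ATBx libraries. Dendritic cell markers were negative in 5 of 6 cases (median −0.13; sums of 29.6 to 65.4 and 24.6 to 55.2 FPKM). So were 5 of 6 fibroblast markers (median −0.13; sums of 1130 to 1560 and 963 to 1220 FPKM), of which Dcn, the gene of a matrix proteoglycan, passed the threshold as lower (log2 fold change −0.31, limma adjusted p = 0.00125). Epithelial markers were negative in 5 of 5 cases (median −0.32) and adipocyte markers in 4 of 4 (median −0.43). Keratinocyte markers were negative in 3 of 3 cases (median −0.24) and endothelial markers in 3 of 4 (median −0.038). The other way went NK cell markers, positive in 3 of 4 cases (median 0.14), and skeletal muscle markers, in 4 of 4 (median 0.38). The general leukocyte markers were negative in 3 of 5 cases, with a median of −0.035. The part of these cell types in the target gene values was not tested.

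Across libraries the genes were compared in pairs after the group means were removed, so that nothing of the group difference enters. Pearson's r and Spearman's rho were computed for 45 pairs, with permutation p-values adjusted over the 45. By r, 13 pairs had an adjusted p under 0.05, all positive, and by rho 7 pairs did. The count depended on the libraries used: without the 4 of highest sum, 3 pairs stayed called, Relb with Nfkbie, Nfkb1 with Nfkb2, and Nfkbie with Tnfaip3. It was 39 after each library was rescaled to 1 sum. Rescaling divides all genes of a library by the same number and so puts 1 shared factor into every pair. The r of Rela and Nfkbia, for example, was −0.0546 before it and 0.74 after. The 39 calls cannot be told apart from that factor. Nfkbiz took part in 5 of the 13, but its libraries form the 2 sets given above, so no r over all 20 is given for it. Within its upper set of 14 libraries, its r was 0.0769 with Nfkb1, −0.258 with Nfkb2, 0.469 with Rel, 0.00236 with Nfkbie and 0.053 with Tnfaip3. Keeping only the upper set narrows the range of Nfkbiz, so these values do not show that the pairs fail. Each pair was also computed without the 2 libraries farthest from the median of its first gene, in the order of the opening list. That choice depends on the order. Without these 2 farthest libraries, the pairs of Nfkbiz with Nfkb1, Rel and Tnfaip3 stayed called (permutation, adjusted p of 0.0305, 0.0259 and 0.0305). For the pairs with Nfkb1 and Rel, the libraries left out were the farthest in those genes and not in Nfkbiz. The libraries left there still hold part of the low set. Nfkbia and Nfkbib took part in none of the 13.

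Nfkb1 and Nfkb2, the 2 precursor genes, varied together. Within the 17 libraries above the gap in Nfkb2 their r was 0.784, and without the 4 libraries of highest sum it was 0.765 (permutation, adjusted p = 0.0127). The inhibitors Nfkbie and Tnfaip3 had an r of 0.681 within the 17 libraries above the gap in Nfkbie, and 0.872 without the 4 libraries (permutation, adjusted p = 0.00225). Relb and Nfkbie had an r of 0.653 within the same 17 libraries and 0.709 without the 4 (permutation, adjusted p = 0.0127). Rel and Tnfaip3 had an r of 0.609 over 20 libraries (permutation p = 0.00393, adjusted 0.0236) and a rho of 0.654 (permutation p = 0.00264, adjusted 0.0297). Without the 2 farthest libraries their r was 0.636 and without the 4 it was 0.703, where its adjusted p of 0.0656 missed the threshold. Rela was in 2 of the 13 pairs called over 20 libraries, with Nfkb2 and with Nfkb1. Its r with Nfkb2 was 0.533 within the 17 libraries above the gap in Nfkb2 and 0.551 without the 4 libraries (permutation, adjusted p = 0.17). Its r with Nfkb1 was 0.615 over 20 libraries (permutation, adjusted p = 0.0236; rho 0.325, adjusted p = 0.3) and 0.241 without the 4. With Nfkbie it had an r of 0.0729 within the 17 libraries above the gap in Nfkbie.

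**Figure D3:**
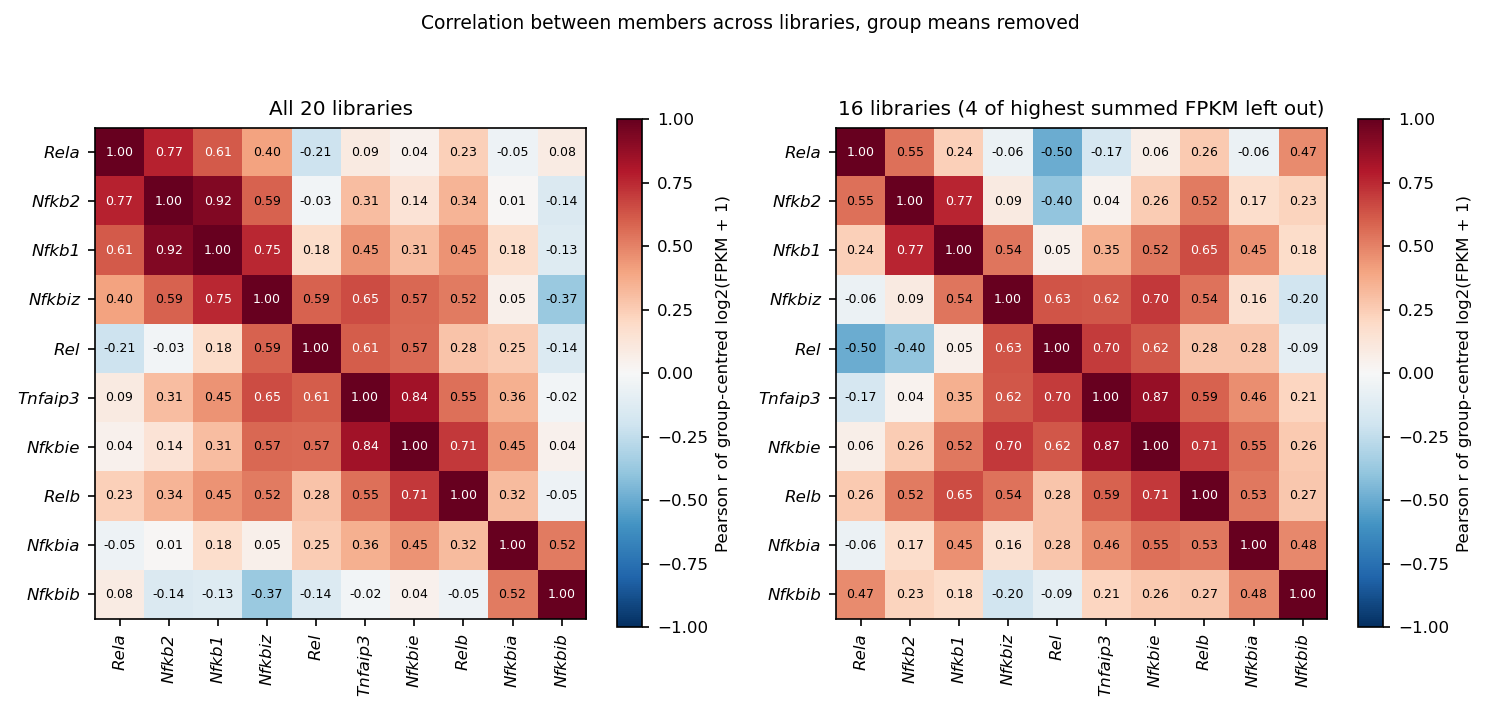
Pearson r between the 10 genes (rows and columns), from log2(FPKM + 1) with group means removed; left over all 20 libraries, right over the 16 left without the 4 of highest summed FPKM. The block of Nfkb1 and Nfkb2 and the block of Nfkbie, Relb and Tnfaip3 are positive on both sides, and the pairs of Nfkbiz over 20 libraries include its low set of 6.

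Several of the genes followed the leukocyte markers. The 10 genes were set against Ptprc, Csf1r, Cd3e, Krt18 and the share of Rpph1 and Rmrp, 50 relations in all, with permutation p-values adjusted over the 50, and 19 had an adjusted p under 0.05. None of the 10 relations with Krt18 was among them. Krt18 ran from 0.335 to 53.7 FPKM in Control, and how far it follows tumour cell content was not tested. Rel and Cd3e, a T cell receptor subunit, had an r of 0.703 (permutation p adjusted to 0.00311) and a rho of 0.817 (adjusted to 0.00075). Their r was 0.703 without the 2 farthest libraries and 0.690 without the 4. In these relations the 2 farthest libraries are those farthest from the median of the marker. The relation of Rel was not particular to Cd3e: its r was 0.717 with Ptprc (permutation, adjusted p = 0.00382) and 0.638 with Csf1r (adjusted p = 0.0131). Tnfaip3 had an r of 0.727 with Cd3e (permutation, adjusted p = 0.00325), a rho of 0.845 (adjusted p = 0.00075), and an r of 0.672 without the 2 farthest and 0.790 without the 4. Tnfaip3 and Csf1r had an r of 0.759 (permutation, adjusted p = 0.00075), a rho of 0.734 (adjusted p = 0.00358) and an r of 0.681 without the 2 farthest libraries and 0.724 without the 4.

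Nfkbie, over the 17 libraries above its gap, had an r of 0.541 with Ptprc, 0.553 with Csf1r and 0.698 with Cd3e. The 3 libraries below the gap, Control 2, Control 3 and P.T.ATBx 2, were also the 3 lowest in Ptprc. Relb had an r of 0.688 with Ptprc (permutation, adjusted p = 0.00586), with a rho of 0.505 (adjusted p = 0.079) and an r of 0.505 without the 2 farthest libraries and 0.677 without the 4. Rela had an r of −0.0657 with Ptprc (permutation, adjusted p = 0.898) and Nfkbib one of −0.177 (adjusted p = 0.613). Nfkb1 had an r of 0.675 with Csf1r (permutation, adjusted p = 0.0045) and a rho of 0.771 (adjusted p = 0.00187). Without the 4 libraries that r was 0.589. With Ptprc, Nfkb1 had an r of 0.446 (permutation, adjusted p = 0.121) and a rho of 0.605 (adjusted p = 0.0244). The level of Ptprc moved with Nfkbie and Relb within groups. Between the groups, Ptprc differed by a log2 fold change of −0.035 (interval −0.28 to 0.21, limma adjusted p = 0.931). With Ptprc as a covariate, the log2 fold change of Relb was −0.097 (limma adjusted p = 0.182) and that of Nfkbia −0.084 (adjusted p = 0.229). Ptprc marks leukocytes as a whole, and the part of leukocyte content in the group values was not tested.

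Library composition moved with the 2 precursors. Nfkb2 and Nfkb1 had negative relations with the share of Rpph1 and Rmrp, and these rested on the 4 libraries of highest sum: over all 20, r was −0.761 for Nfkb2 (permutation, adjusted p = 0.0025; rho −0.562, adjusted p = 0.0404) and −0.698 for Nfkb1 (adjusted p = 0.00586; rho −0.511, adjusted p = 0.0661), and without the 4 it was −0.184 and −0.051.

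**Figure D4:**
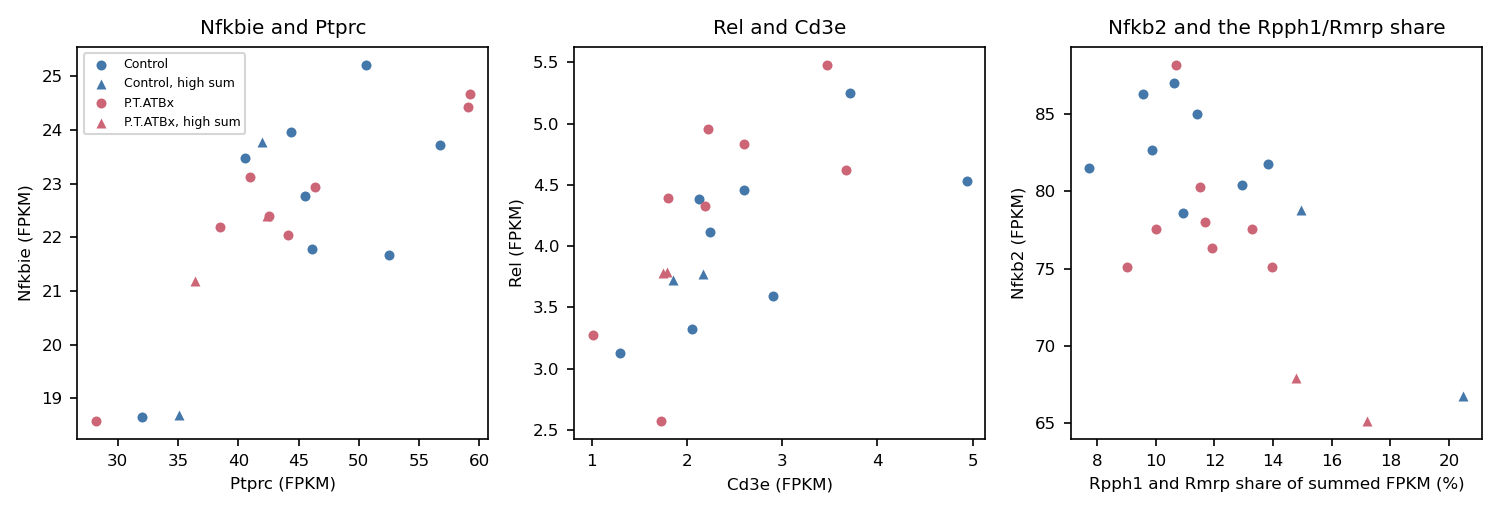
FPKM of Nfkbie against Ptprc, of Rel against Cd3e and of Nfkb2 against the share of Rpph1 and Rmrp in the summed FPKM (%), by library and group; triangles are the 4 libraries of highest summed FPKM. Rel was higher in libraries with more Cd3e, 3 libraries sit low in both Nfkbie and Ptprc, and 3 triangles hold the lowest Nfkb2 values, 65.1 to 67.9 FPKM.

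The rows outside these 10 whose levels ran most like each gene were found by Pearson's r over 20 libraries, with group means removed, and are given as a description with no p. They share the library composition described above. Nfkb1 and Nfkb2 had the same nearest gene, Pik3r4, at r = 0.943 and 0.967, and 0.84 and 0.866 without the 4 libraries of highest sum. Nfkbie was nearest to Cd96, a receptor of T and NK cells (r = 0.944, and 0.945 without the 4 libraries), and Klrc1, an NK cell receptor, was also among its nearest 3 rows. Rel was nearest to Atp11b (0.92, and 0.945 without the 4), Tnfaip3 to Fut7 (0.912 and 0.85), Relb to Acap1 (0.851 and 0.83) and Rela to Taf1c (0.842 and 0.818). Nfkbia and Nfkbib had the lowest nearest values, 0.709 with Mob3a and 0.732 with Isca1 (0.709 and 0.69 without the 4). For Nfkbiz no nearest gene is given, because of its 2 sets of libraries.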

How the data were processed

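RNA was column-purified and made into stranded total RNA libraries, per the labels' protocols. The authors deposited 1 table of FPKM values with 1 column per library; per the submitters' processing notes, the build was mm10, which is GRCm38. Which aligner, quantifier and annotation were used is not given in the sources used here. Read totals are unknown; the spacing of low values gave relative depths of 0.803 to 1.28.

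From the deposited FPKM, log2(FPKM + 1) was computed for rows averaging 0.5 FPKM or more. Group was fitted with limma 3.58.1 (R 4.3.3; robust, trended moderation) with Benjamini-Hochberg adjustment and a threshold of 0.05; the script was tested on simulated data. Fold changes understate those of low genes. Correlation and group permutations used 100000 resamples, or 20000 for subsets of libraries. The sets of libraries on either side of a gap in Nfkb2, Nfkbie or Nfkbiz were seen in the data and are described without a test. Genes named are the 10, each pathway list's 4 smallest unadjusted p, the nearest 3 rows by r (fewer are printed) and preset markers. Cd83, Retnlg, S100a9, Csf3r, Dcn, Psd and Sirt2 were named after their values were seen. The members and lists were chosen with earlier results of these data known. Alternatives covered pseudocount, filter, scaling, weights, moderation, covariates, the replicate number and single libraries. Sequences and coordinates are from RefSeq GRCm38.p6.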

Additional observations from a re-analysis of the deposited data

Results flagged for a closer look

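Control 1 stood apart from the other Control libraries in Nfkb2, at 66.8 FPKM, where the next lowest Control library was at 78.6 FPKM. The gap was 0.586 of the whole range of the group, above the limit of Dixon's test for 10 samples. Of 20 groups checked (10 genes in each of the groups), this was the only one past its limit, and chance alone flags about 1 in 20. Control 1 was also among the 4 libraries of highest summed FPKM. The part of that in its Nfkb2 value was not tested.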

How the results depend on the processing

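None of the 10 genes passed the adjusted threshold under any of 33 alternatives (lowest adjusted p 0.145, Relb without P.T.ATBx 6), and 309 of their 330 values kept their direction. The 21 others belonged to Nfkbie, −0.006 with arrayWeights, −0.007 without the 4 libraries of highest sum and −0.023 to 0.032 over libraries left out in turn; to Tnfaip3, 0.006 with Ptprc and 0.033 with macrophage markers as covariate and −0.068 to 0.029 over libraries left out; and to Nfkbiz, −0.007 to 0.081. Over libraries left out, Rel ran from 0.003 to 0.099, Nfkb1 from −0.072 to −0.023 and Nfkbib from −0.053 to −0.007. Against 108 rows called, 49 were called after rescaling to 1 sum, 306 with arrayWeights, 221 with Ptprc as a covariate and, chosen after seeing the data, 67 without the 4 libraries and 242 with the Rpph1 and Rmrp share as a covariate. Leaving out 1 library gave 69 (without P.T.ATBx 4) to 193 (without Control 1). Of 13 correlated pairs, 8 stayed called without the 2 farthest libraries and 3 without the 4 (chosen after seeing the data). After rescaling, which puts 1 shared factor into all genes of a library, 39 pairs were called. The labels do not say whether the replicate numbers pair the samples. Of 10 pairs with the same number, 5 correlated over 0.1, with r from −0.315 to 0.393. Of 10 Control libraries, 3 correlated best with their own number. These values do not decide whether the numbers pair libraries. With a replicate block, 124 rows and 0 of the 10 genes were called. Read depth is unknown, so no counting error can be given.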
